A study of Homo sapiens with 12 samples.

Results

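The combined effect of chaetocin and MLN8237 on transcript levels was compared with the sum of their separate effects in PANC-1 cells, a human line established from a carcinoma of the pancreatic duct. All 12 RNA sequencing libraries of the series were used, 3 in each of 4 groups of a full factorial design: 30 nM chaetocin plus 90 nM MLN8237, 30 nM chaetocin, 90 nM MLN8237, and vehicle (DMSO), each for 24 h. The labels of the combination libraries write its second compound as MLN3237, while the treatment protocol names MLN8237, and the label was read as MLN8237. All groups are unmodified cells of 1 line. The labels do not say whether the libraries of a group came from separate cultures, and p-values therefore cover only the spread between these libraries, which may be technical.

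Chaetocin, made by fungi, is known to inhibit SUV39H1, an enzyme that methylates lysine 9 of histone H3 (H3K9) in silent chromatin, and of thioredoxin reductase, an enzyme that keeps cellular thiols reduced. MLN8237, also called alisertib, inhibits Aurora A, a kinase that builds and orients the mitotic spindle. When compounds act independently on transcript levels, their fold changes multiply, which makes their log2 changes add. The interaction given here is the log2 change of the combination less the log2 changes of chaetocin and of MLN8237, all against vehicle, so that 0 is additivity, a positive value lies above it and a negative value below it. For each gene the additive expectation in CPM, which are counts scaled to the library's total and here also by edgeR's TMM factors for composition, is the chaetocin mean times the MLN8237 mean divided by the vehicle mean.

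Summed gene counts ran from 49439795 to 63747510 per library, and 22831 of 57773 genes passed the expression filter and were tested. Within groups, library counts differed beyond sampling noise in every pair (chi-square of 5.712 to 126.4 per gene). MLN8237 library 3 stood apart from its group, with a root mean square deviation of 0.372 log2 CPM from the group mean, against 0.113 to 0.233 in the other 11 libraries. Combination library 2 differed from combination libraries 1 and 3 in many genes that respond to chaetocin, and its values are given beside them. Of the 6 ductal carcinoma markers all were detected in every library, with KRT8 at 1069 to 2343 and KRT19 at 168 to 620 CPM before TMM scaling. Of the markers of other cell types, INS had no count, and CD3E, CDH5, PRSS1, CPA1, AMY2A, GCG, SST, DCN and LUM were at 0 in 8 to 11 libraries, while CD68 (149 to 244) and COL1A1 (33.3 to 76.6) were expressed.

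No gene departed from additivity past the threshold when p-values were adjusted over all genes. The edgeR quasi-likelihood test with Benjamini-Hochberg adjustment called 0 of 22831 genes at an adjusted p under 0.05 (0% of genes tested), and the smallest adjusted p was 0.063. limma-voom also called 0, and DESeq2 called 15 genes, 11 above and 4 below additivity. At an unadjusted p under 0.05, 3108 genes (13.6%) departed, of which 1339 (5.86%) lay above additivity and 1769 (7.75%) below it. That count depended on single libraries: it was 1322 without combination library 1, 1838 without chaetocin library 3, 1908 without vehicle library 2, 1901 without vehicle library 3 and 4943 without MLN8237 library 1. By comparison, the average effect of chaetocin over the backgrounds with and without MLN8237 was called for 11507 genes (50.4%), 5904 (25.9%) higher and 5603 (24.5%) lower, in the same fit. The average effect of MLN8237 was called for 0 genes by edgeR and by limma-voom and for 42 by DESeq2, with 1734 genes (7.59%) at an unadjusted edgeR p under 0.05.

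The interaction is a difference of differences and is measured less precisely than a single contrast. Its median standard error was 0.253 on the log2 scale, 1.41 times the 0.179 of chaetocin against vehicle. The interaction was between -0.27 and 0.33 for the middle 50 percent of genes, with a median of 0.014, and between -0.70 and 1.14 for the middle 90 percent. Genes of low level spread most: of 16355 genes with a mean of at least 1 CPM, 249 had an interaction over 1 and 53 one under -1, against 1476 and 498 of all genes tested. Among the genes of at least 1 CPM, 966 (5.91%) lay above additivity and 1650 (10.1%) below it at an unadjusted p under 0.05. Additivity counted on the CPM scale instead of the log scale gave the same sign for all 2616 of these.

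**Figure D1:**
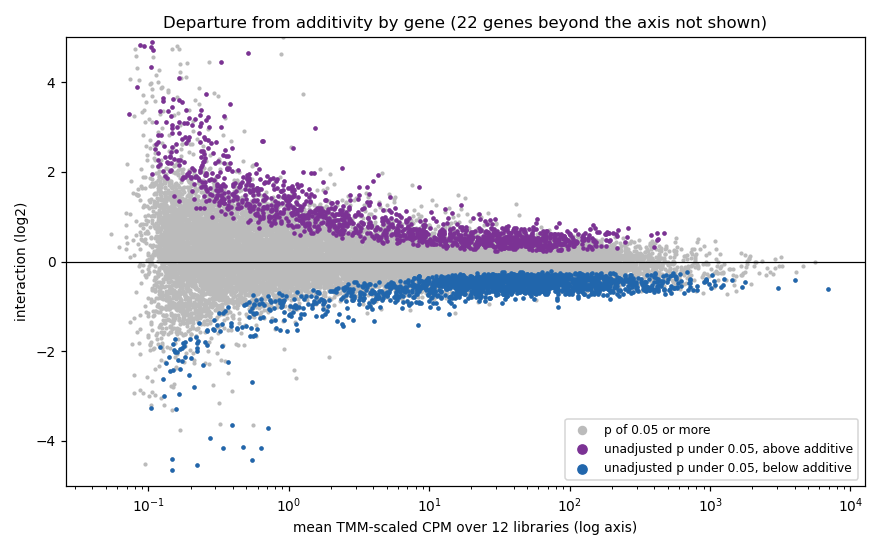
The interaction of each tested gene (log2, vertical axis) is plotted against its mean TMM-scaled CPM over 12 libraries (log axis). Coloured points are the 3108 genes with an unadjusted p under 0.05, 1339 above and 1769 below additivity, and the spread widens toward low levels. No point passed an adjusted p under 0.05.

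Since no gene was called, the genes described first are the 10 in each direction with the smallest p among genes of at least 1 CPM. Each of these 20 had an edgeR adjusted p of 0.362, so their departures are values and not calls. Apart from RP3-375P9.2 (0.063), the same adjusted p belongs to every gene named further on as departing from additivity at an unadjusted p under 0.05. Above additivity were regulators of transcription and chromatin (PRDM10, ZNF554, RYBP, NR4A2), the receptor gene LPAR6, the channel gene TRPV3, the ubiquitin ligase gene PELI1, the synaptic scaffold gene BSN, the pseudogene ZSCAN12P1 and the transcript RP11-47A8.5. Below it were the secreted factors CTGF and EDN1, the enzyme genes ADA and LPCAT4, ZNF467, DNAH11, SSBP4, SAMD1, MIR25 and RP11-773H22.4. Levels are TMM-scaled CPM and compare libraries within a gene, not genes with each other, because they are not per length.

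PRDM10 (ENSG00000170325, chr11:129769601-129872730 in hg19), which encodes a zinc finger transcription factor, was at 21.0, 17.9 and 17.4 CPM in the combination libraries. It was at 13.0, 12.7 and 11.6 CPM with chaetocin, 15.5, 14.1 and 14.4 CPM with MLN8237, and 15.8, 16.4 and 19.7 CPM with vehicle. Each compound alone thus lay below the vehicle range, while the combination overlapped it and lay above an additive expectation of 10.5 CPM (interaction 0.83 ± 0.158 on the log2 scale, SE). RYBP (chr3:72420976-72496069), which encodes a subunit of Polycomb repressive complex 1, was at 44.6, 40.8 and 43.3 CPM with both compounds, 32.9, 32.0 and 32.0 CPM with chaetocin, 31.2, 29.4 and 29.5 CPM with MLN8237, and 29.8, 33.6 and 31.9 CPM with vehicle. The combination stood above all 9 other libraries, and each compound alone overlapped vehicle, with an interaction of 0.49 ± 0.113. PELI1, a ubiquitin ligase of innate immune receptor signalling, was at 10.5, 9.71 and 9.08 CPM in the combination libraries, also above all others. It was at 7.21 to 7.42 CPM with chaetocin, 4.41 to 5.93 CPM with MLN8237 and 6.42 to 7.93 CPM with vehicle. MLN8237 alone thus lay below vehicle, while chaetocin alone overlapped it (interaction 0.83 ± 0.191). PELI1 overlaps another gene in the table.

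Other genes above additivity were already higher with chaetocin alone. LPAR6 (ENSG00000139679, chr13:48963707-49018840), a receptor for the lipid mediator lysophosphatidic acid, was at 30.3, 14.1 and 25.6 CPM with both compounds and 6.37, 8.61 and 5.65 CPM with chaetocin. It was at 1.97, 2.05 and 1.69 CPM with MLN8237 and 1.85, 1.93 and 1.54 CPM with vehicle. The 2 groups without chaetocin overlapped, and the combination lay above an additive expectation of 7.37 CPM in every library (interaction 1.66 ± 0.36). LPAR6 lies within RB1, so reads of the host gene could be counted to it.

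NR4A2 (chr2:157180944-157198860), an orphan nuclear receptor induced early by many stimuli, was at 2.69, 1.91 and 3.13 CPM with both compounds, 1.32, 1.25 and 1.37 CPM with chaetocin, 0.239, 0.165 and 0.351 CPM with MLN8237, and 0.503, 0.31 and 0.465 CPM with vehicle. All combination libraries were above all chaetocin libraries, which were above all others, and the interaction was 1.73 ± 0.414. TRPV3, a cation channel gated by warmth, was at 9.26, 4.90 and 8.05 CPM with both compounds against 3.90 to 4.24 CPM with chaetocin, 0.285 to 0.551 CPM with MLN8237 and 0.629 to 0.985 CPM with vehicle (interaction 1.66 ± 0.392). ZNF554, a zinc finger gene, was at 11.2, 5.63 and 12.4 CPM against 3.20 to 3.93 CPM with chaetocin, and ZSCAN12P1 at 13.9, 7.17 and 10.4 CPM against 3.93 to 4.79 CPM. Combination library 2 was the lowest of its group in each of LPAR6, NR4A2, TRPV3, ZNF554 and ZSCAN12P1, and remained above all chaetocin libraries in all 5.

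**Figure D2:**
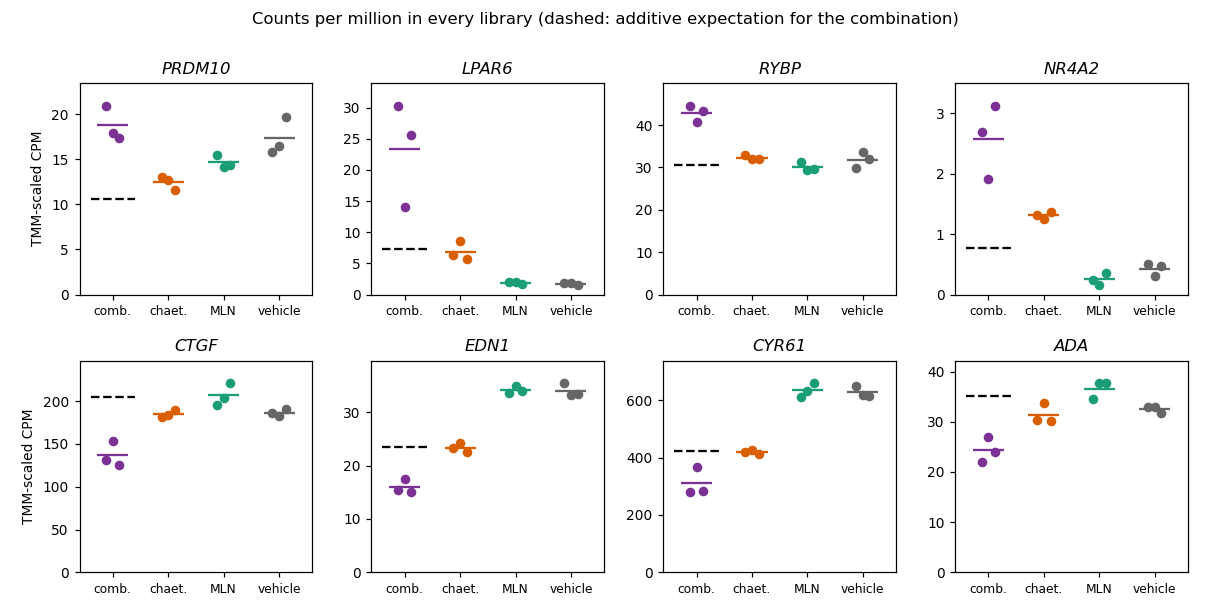
TMM-scaled CPM of 8 genes is shown for every library (points) with the group mean (solid bar) and, over the combination, the additive expectation (dashed bar). Combination libraries lay above the dashed bar for PRDM10, LPAR6, RYBP and NR4A2 and below it for CTGF, EDN1, CYR61 and ADA.

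Among genes of at least 1 CPM, the smallest p below additivity belonged to CTGF and EDN1, which encode secreted signals. CTGF (ENSG00000118523, chr6:132269316-132272513), a matricellular growth factor also named CCN2 and known as a target of the transcription factors TEAD and their coactivator YAP, was at 132, 154 and 125 CPM with both compounds. It was at 181, 184 and 190 CPM with chaetocin, 195, 204 and 221 CPM with MLN8237, and 186, 182 and 190 CPM with vehicle. The combination lay below all other libraries, while chaetocin and vehicle overlapped, and the interaction was -0.58 ± 0.126.

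EDN1 (chr6:12290596-12297427), which encodes the vasoconstrictor peptide endothelin-1, was at 15.4, 17.5 and 15.1 CPM with both compounds, 23.3, 24.2 and 22.5 CPM with chaetocin, 33.6, 34.8 and 34.0 CPM with MLN8237, and 35.4, 33.3 and 33.5 CPM with vehicle. MLN8237 alone overlapped vehicle, chaetocin alone was lower, and the combination was lower again, with an interaction of -0.55 ± 0.119. CYR61 (chr1:86046444-86049645, also CCN1), the close relative of CTGF, was at 278, 368 and 283 CPM with both compounds, 419, 427 and 413 CPM with chaetocin, 612, 633 and 659 CPM with MLN8237, and 651, 619 and 614 CPM with vehicle. It followed the order of EDN1, with an interaction of -0.45 ± 0.148 (edgeR adjusted p = 0.362). CTGF overlaps RP11-69I8.3 in the table.

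The promoters of CTGF and EDN1 are shown because CTGF is a textbook TEAD target and both genes lay below additivity. The letters GGAATG, the core of the motif bound by TEAD factors, and its reverse complement were searched in 300 bases from 250 before to 50 after each start in the RefSeq table (GRCh38.p14). CTGF had 3 matches, starting 169, 104 and 95 bases before the start. Of 3 EDN1 starts 1, the middle one, had a match, 129 bases before the start, and the outer ones had none. The EDN1 stretch shown was chosen for that match, and which start these cells use was not measured. The same letters occur in 14% of all 35116 promoters of that length. The 250 bases before the start are given 5′ to 3′ on the gene's strand, with matches in capitals, for CTGF (chr6:131951373-131951622, minus strand) and for the EDN1 start with a match (chr6:12289764-12290013, plus strand). A match of letters is a description of the sequence and not a measured binding site. Any part of TEAD factors in the departures was not tested.
CTGF promoter: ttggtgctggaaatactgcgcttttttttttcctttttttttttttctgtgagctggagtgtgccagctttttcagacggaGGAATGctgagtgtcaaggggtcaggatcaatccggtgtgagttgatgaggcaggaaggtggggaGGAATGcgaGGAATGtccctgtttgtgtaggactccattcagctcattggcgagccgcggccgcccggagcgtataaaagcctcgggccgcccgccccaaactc
EDN1 promoter: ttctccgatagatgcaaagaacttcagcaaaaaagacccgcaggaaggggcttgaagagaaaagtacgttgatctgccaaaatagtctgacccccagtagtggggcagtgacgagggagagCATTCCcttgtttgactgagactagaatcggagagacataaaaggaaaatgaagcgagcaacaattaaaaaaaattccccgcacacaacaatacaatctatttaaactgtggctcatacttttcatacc

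ADA (chr20:43248163-43280874), which encodes adenosine deaminase, was at 22.0, 27.0 and 23.9 CPM with both compounds, 30.3, 33.7 and 30.1 CPM with chaetocin, 34.5, 37.7 and 37.6 CPM with MLN8237, and 33.0, 32.9 and 31.8 CPM with vehicle. The combination lay below all 9 others (interaction -0.53 ± 0.132). LPCAT4, an acyltransferase of phospholipid remodelling, was at 16.0, 19.0 and 16.8 CPM with both compounds against 23.2 to 24.0 CPM with chaetocin, 33.1 to 34.0 CPM with MLN8237 and 32.3 to 33.9 CPM with vehicle (interaction -0.47 ± 0.119). ZNF467, a zinc finger gene, was at 0.747, 0.997 and 0.612 CPM with both compounds against 1.37 to 2.01 CPM with chaetocin, 4.09 to 4.65 CPM with MLN8237 and 3.61 to 4.03 CPM with vehicle (interaction -1.23 ± 0.287). In both genes the combination lay below all chaetocin libraries, and MLN8237 overlapped vehicle in LPCAT4 and lay just above it in ZNF467. MIR25 lies within MCM7, and its counts (0.822 to 0.871 CPM with both compounds and 1.27 to 1.39 CPM with chaetocin) cannot be told apart from reads of its host and say nothing of the mature microRNA. DNAH11, SSBP4, SAMD1 and RP11-773H22.4 had interactions between -0.72 and -0.55, with the combination below all 9 other libraries in each. Across all tested genes the combination lay above all 9 others in 1475 (6.46%) and below all 9 in 1273 (5.58%).

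The gene nearest to the threshold, RP3-375P9.2 on chromosome 6, had a different layout and was singled out after its values were seen, as its mean is under 1 CPM. It was at 0.187, 0.122 and 0.085 CPM with both compounds, 0.243, 0.152 and 0.208 CPM with chaetocin, 1.14, 1.80 and 1.38 CPM with MLN8237, and 0.147, 0.110 and 0.107 CPM with vehicle. RP3-375P9.2 was thus high with MLN8237 alone, and with both compounds it overlapped vehicle (interaction -4.14 ± 0.528, edgeR adjusted p = 0.063). DESeq2 called RP3-375P9.2, EDN1, CTGF and ZNF467 below additivity. It called ZSCAN12P1, PRDM10, RYBP, LPAR6, EXD1, PELI1, RP4-751H13.7, RAG1, GRK1, ZNF554 and IKZF3 above it. The edgeR interaction of these 15 genes was within 0.05 of the DESeq2 value on the log2 scale.

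Genes that chaetocin raised lay above additivity more often than below, and genes that it lowered lay below more often than above. The average chaetocin effect sorts genes with weights orthogonal to those of the interaction, but both use the same 12 libraries, so that spread confined to 1 group enters both; the values are given as a description. Of 656 genes of at least 1 CPM called higher by over 2-fold, the median interaction was 0.42 (interquartile range 0.126 to 0.754), with 531 positive and 125 negative values. For 3079 genes higher by up to 2-fold it was 0.157, and for 7488 genes not called it was -0.002. For 4612 genes lower by up to 2-fold it was -0.191, and for 520 genes lower by over 2-fold it was -0.252, with 121 positive and 399 negative values.

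In the class higher by over 2-fold, the median log2 change against vehicle was 1.68 with both compounds, 1.28 with chaetocin and -0.002 with MLN8237. In the class lower by over 2-fold it was -1.35, -1.11 and 0.024 in the same order. The departure was not shared by all combination libraries. Against the additive expectation, combination libraries 1 and 3 had medians of 0.584 and 0.609 in the higher class and -0.402 and -0.38 in the lower class, and combination library 2 had medians of -0.001 and 0.004. Taking all 5904 genes called higher and all 5603 called lower, without the CPM minimum, the median interactions were 0.26 and -0.195, ranging over left-out libraries from 0.186 (without combination library 1) to 0.358 (without combination library 2) and from -0.273 (without MLN8237 library 1) to -0.145 (without combination library 1).

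**Figure D3:**
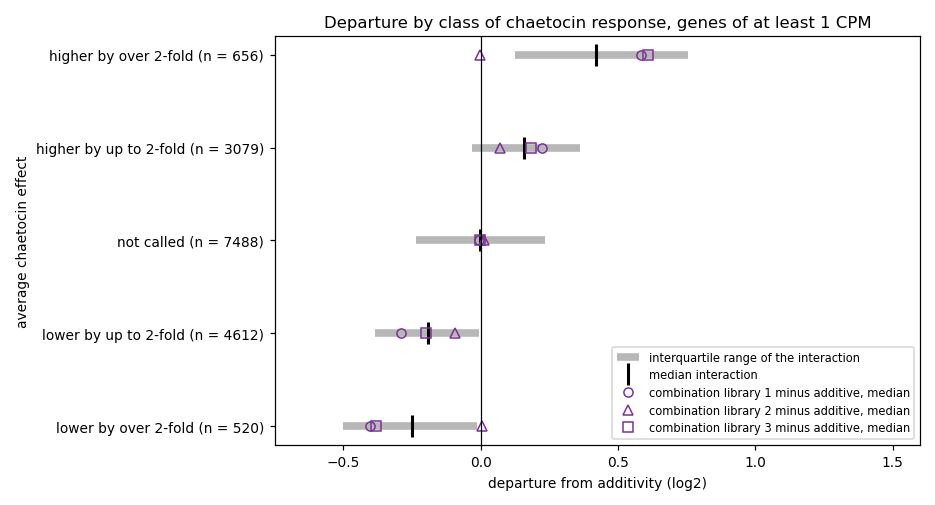
The interaction (log2) is shown for 5 classes of genes of at least 1 CPM, sorted by the average chaetocin effect, as median (black bar) and interquartile range (grey). Open symbols are the median departure of each combination library from the additive expectation. Libraries 1 and 3 depart in the outer classes, at 0.584 and 0.609 and at -0.402 and -0.38, while library 2 stays at -0.001 and 0.004.

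Of the 16 genes with the largest average chaetocin effects, 4 had an unadjusted p under 0.05 for the interaction. Of all genes tested, 13.6% did. Of the 8 genes raised most at a mean of at least 5 CPM (MLC1, MUC5AC, HKDC1, LUCAT1, RP11-213H15.4, PAX5, SPOCD1 and GREB1), all had positive interactions, from 0.105 to 1.44, and GREB1 alone had an unadjusted p under 0.05. Among these 8, combination library 2 exceeded all chaetocin libraries only in GREB1. The interaction of MLC1, 0.105, had a standard error of 2.86, with vehicle at 0 to 0.073 CPM. RP11-213H15.4 overlaps LUCAT1, so they may share reads. GREB1, a gene known as an oestrogen receptor target, was at 17.9, 7.59 and 14.6 CPM with both compounds against 5.23 to 6.84 CPM with chaetocin, 0.434 to 0.812 CPM with MLN8237 and 0.713 to 1.02 CPM with vehicle (interaction 1.44 ± 0.442). MUC5AC, a gel-forming mucin, was at 27.0, 10.5 and 45.1 CPM with both compounds and 4.86, 7.28 and 14.3 CPM with chaetocin, and the groups overlapped. Of the 8 genes lowered most (CCL2, CX3CL1, ANO9, MXRA5, ANO8, B3GNT7, COL11A1 and ACOXL), interactions ran from -0.83 to 1.11. The chemokine gene CX3CL1 (-0.68 ± 0.282) and the glycosyltransferase gene B3GNT7 (-0.83 ± 0.312) lay below additivity, and the matrix gene MXRA5 lay above it (1.11 ± 0.417).

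None of the genes named here for the compounds' known target enzymes departed from additivity at an unadjusted p under 0.05 in the 12 libraries. AURKA, which encodes Aurora A, was at 227, 271 and 242 CPM with both compounds, 213, 208 and 193 CPM with chaetocin, 234, 251 and 249 CPM with MLN8237, and 210, 209 and 199 CPM with vehicle. The groups with MLN8237 lay above those without it, and the interaction was 0.023 ± 0.121 (edgeR adjusted p = 0.94), a sign that flips without any of 3 libraries. TXNRD1, which encodes thioredoxin reductase, was at 1645, 1775 and 1433 CPM with both compounds, 1908, 1783 and 1662 CPM with chaetocin, 690, 638 and 461 CPM with MLN8237, and 697, 739 and 783 CPM with vehicle. Its average chaetocin effect was called (1.35 log2, edgeR adjusted p = 4.41e-07), and its interaction was 0.169 ± 0.194 (edgeR adjusted p = 0.668), a sign that is opposite on the CPM scale. SUV39H1 (-0.18 ± 0.143), SUV39H2 (0.094 ± 0.114) and EHMT2 (-0.12 ± 0.140), all H3K9 methyltransferase genes, also had unadjusted edgeR p-values over 0.05.

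Of 28 gene lists with at least 5 tested members, none had a called member, and medians are given beside the -0.27 to 0.33 that holds the middle 50 percent of all tested genes. Leaving out 1 library moved the median of 25 of the 28 lists by over 1.5 times or past 0, and 11 of them changed sign, so no direction is read from the smaller medians. The lowest medians were those of metallothioneins, cytosolic ribosomal proteins, ductal carcinoma markers, the proteasome and G1/S and DNA replication. Cytosolic ribosomal protein genes had a median of -0.58, with all 78 members negative and 57 (73.1%) below additivity at an unadjusted p under 0.05, against 7.75% of all genes. That background rises with level, from 1.84% of genes under 1 CPM to 12% at 10 to 100 CPM and 16.1% over 100 CPM. Their summed level was 28840 to 35920 CPM with both compounds, 35460 to 41330 CPM with chaetocin, 41420 to 68860 CPM with MLN8237 and 37580 to 43480 CPM with vehicle. RPS18, a protein of the small subunit, was at 540, 662 and 593 CPM with both compounds, 693, 699 and 690 CPM with chaetocin, 770, 807 and 1089 CPM with MLN8237, and 781, 697 and 592 CPM with vehicle. MLN8237 library 3 was the highest library for RPS18, and without that library the list's median was -0.31, with 39 members below additivity at an unadjusted p under 0.05. Many ribosomal protein genes have near-identical copies, so their counts are uncertain.

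Short and long genes departed in opposite directions. Among genes of at least 1 CPM, the median interaction was -0.129 under 1 kb of gene length as deposited, -0.25 at 1 to 2 kb, -0.141 at 2 to 4 kb, -0.011 at 4 to 6 kb, 0.101 at 6 to 10 kb and 0.258 over 10 kb. Without MLN8237 library 3, the library with the steepest trend on length, the medians were -0.138 at 1 to 2 kb and 0.159 over 10 kb. With each library's trend on length removed, a setting chosen after the data were seen, they were -0.135 and 0.026, while the ribosomal median stayed at -0.49 and the proteasome median at -0.27. How much of any list's departure comes with length, or with the RNA of MLN8237 library 3, was not tested. Fewer cells of a kind and less RNA per cell cannot be told apart in RNA from whole cultures.

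**Figure D4:**
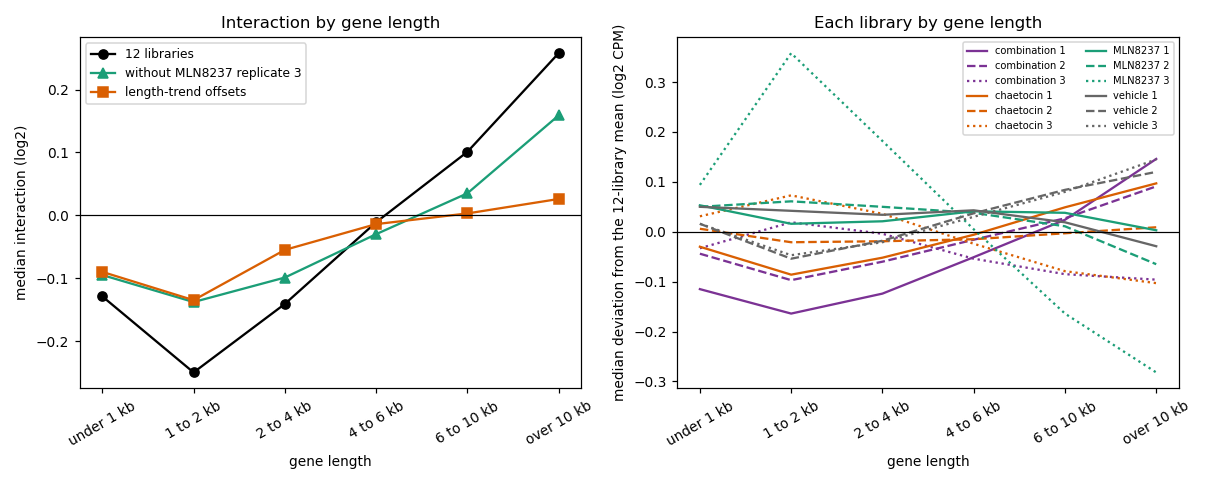
Left, the median interaction (log2) by class of gene length for genes of at least 1 CPM, in all 12 libraries, without MLN8237 library 3, and with length-trend offsets. Right, the median deviation of each library from the 12-library mean (log2 CPM) by gene length. MLN8237 library 3 (dotted green) runs highest for genes of 1 to 2 kb and lowest for genes over 10 kb.

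The proteasome list had a median of -0.30, with 8 of 41 members (19.5%) below additivity at an unadjusted p under 0.05 and 0 above. Of all tested genes over 100 CPM 16.1% lay below, so that share is near the background of highly expressed genes. Without MLN8237 library 3 the proteasome median was -0.16 with 2 below. PSMB5, a catalytic subunit, was at 88.1, 119 and 115 CPM with both compounds, 128, 121 and 137 CPM with chaetocin, 167, 181 and 255 CPM with MLN8237, and 177, 156 and 161 CPM with vehicle (interaction -0.55 ± 0.215, and -0.35 without MLN8237 library 3). Metallothioneins, which bind zinc and copper, had a median of -0.58, with 4 of 10 below and 1 above at an unadjusted p under 0.05. MT1E was at 22.5, 35.7 and 32.3 CPM with both compounds, 39.3, 42.3 and 48.0 CPM with chaetocin, 110, 119 and 218 CPM with MLN8237, and 116, 102 and 99.6 CPM with vehicle. The combination was lowest in MT1E (interaction -1.01 ± 0.322, and -0.64 without MLN8237 library 3), whereas MT1M was at 8.08, 7.40 and 8.93 CPM with both compounds, 8.66, 10.9 and 14.3 CPM with chaetocin, 3.97, 4.79 and 7.42 CPM with MLN8237, and 4.30, 3.19 and 4.24 CPM with vehicle. The metallothionein median was -0.31 without MLN8237 library 3, -0.88 without combination library 3 and -0.229 without the 3 treated libraries numbered 3. These genes share near-identical stretches.

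Genes of S phase entry and DNA replication centred below additivity. Of 65 tested members of that list, 20 (30.8%) were below and 1 above at an unadjusted p under 0.05. Among all genes of at least 1 CPM, 10.1% lay below and 5.91% above. The list's median of -0.25 ranged from -0.31 to -0.20 over left-out libraries and was -0.21 with length-trend offsets. PCNA, the sliding clamp of DNA polymerases, was at 182, 234 and 208 CPM with both compounds, 269, 267 and 271 CPM with chaetocin, 244, 260 and 325 CPM with MLN8237, and 259, 233 and 211 CPM with vehicle. The combination lay below all chaetocin libraries and overlapped vehicle (interaction -0.61 ± 0.174). GINS2, a subunit of the replicative helicase, was at 21.0, 26.9 and 22.2 CPM with both compounds, 32.9, 31.8 and 35.9 CPM with chaetocin, 25.4, 27.1 and 34.4 CPM with MLN8237, and 27.6, 26.1 and 24.9 CPM with vehicle (interaction -0.67 ± 0.177). GINS3 of the same complex had an interaction of -0.44 ± 0.12. GINS2 and PCNA overlap other genes in the table.

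Mitotic genes had a median of 0.098 with 7 of 82 above and 5 below at an unadjusted p under 0.05, and a median of 0.035 with 6 above and 2 below without MLN8237 library 3. Of all tested genes, 5.86% lay above and 7.75% below in the 12 libraries. MKI67, the proliferation antigen Ki-67, was at 778, 589 and 603 CPM with both compounds, 531, 509 and 523 CPM with chaetocin, 347, 310 and 305 CPM with MLN8237, and 319, 390 and 477 CPM with vehicle. Its combination libraries were the highest of all (interaction 0.63 ± 0.199, and 0.375 with length-trend offsets), as were those of the spindle gene ASPM, at 210, 187 and 157 CPM against 123 to 151 CPM with chaetocin (0.63 ± 0.204). SPC24, a kinetochore subunit, lay below, at 34.2, 44.5 and 40.3 CPM with both compounds against 48.1 to 54.0 CPM with chaetocin, 52.6 to 79.4 CPM with MLN8237 and 43.2 to 54.1 CPM with vehicle (-0.69 ± 0.211). Among 23 genes of Aurora kinases and their partners the median was 0.023, with 0 above and 2 below, AURKB (-0.43 ± 0.176, and -0.28 without MLN8237 library 3) and AJUBA (-0.29 ± 0.126). DNA repair genes had a median of 0.000 with 5 of 45 on either side, among them the large genes BRCA2 (0.71 ± 0.233) and ATM (0.54 ± 0.214) above. With length-trend offsets 3 lay above and 2 below, and ATM was at 0.133. ATM was at 0.36 without vehicle library 3, and BRCA2 at 0.475 without combination library 1. Tubulins and microtubule regulators had a median of -0.039, with 1 of 31 above and 4 below.

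**Figure D5:**
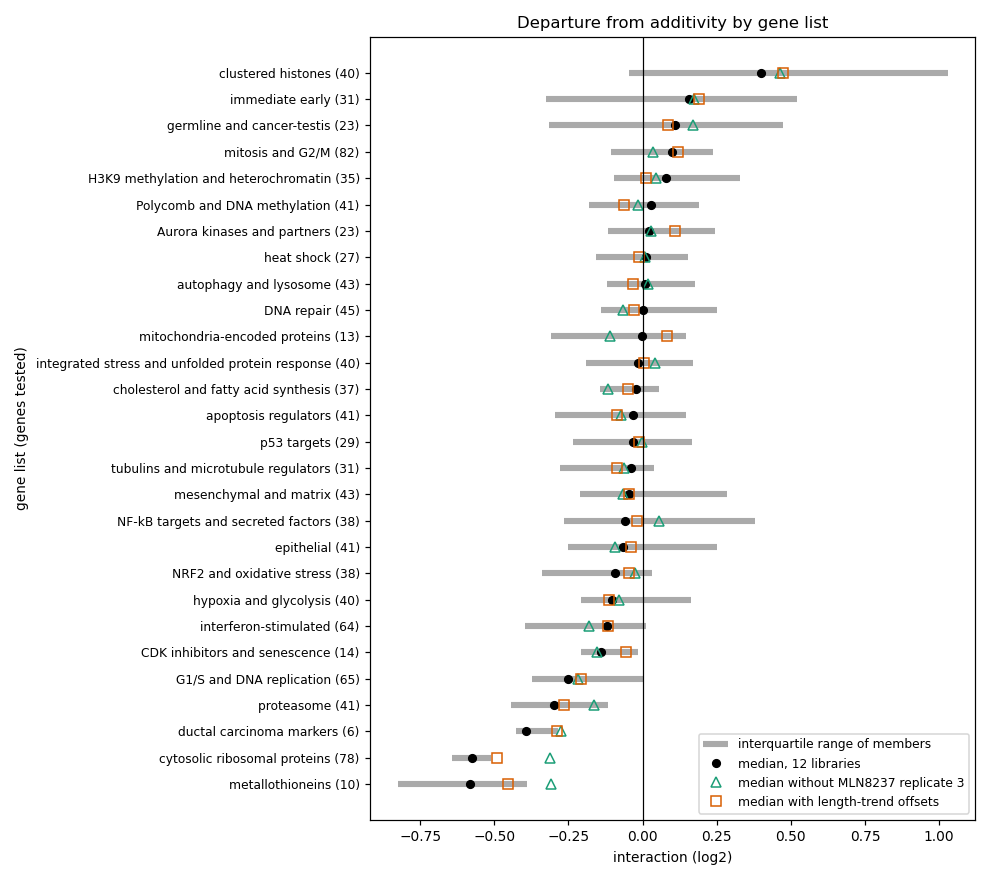
For each of 28 gene lists (tested members in brackets) the median interaction (log2) over 12 libraries is shown as a black point with the interquartile range of members in grey. Triangles give the median without MLN8237 library 3, and squares that with length-trend offsets. Cytosolic ribosomal proteins and metallothioneins lie at -0.58 and move to -0.31 without that library, while G1/S and DNA replication stays between -0.25 and -0.21.

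Among chromatin genes, 6 of 35 (17.1%) on the H3K9 methylation and heterochromatin list lay above additivity at an unadjusted p under 0.05 and 1 below, with a median of 0.078 that was 0.013 with length-trend offsets. Without MLN8237 library 3, 3 lay above and 1 below, with a median of 0.044. Of all tested genes 5.86% lay above and 7.75% below in the 12 libraries. Of genes of at least 1 CPM, 5.91% lay above and 10.1% below. JMJD1C, of the H3K9 demethylase family, was at 274, 191 and 182 CPM with both compounds, 180, 164 and 144 CPM with chaetocin, 93.0, 89.3 and 61.9 CPM with MLN8237, and 90.2, 104 and 111 CPM with vehicle (interaction 0.73 ± 0.248). ATF7IP, a partner of the H3K9 methyltransferase SETDB1, had an interaction of 0.74 ± 0.297 and the demethylase gene KDM4A one of 0.34 ± 0.124. On the Polycomb and DNA methylation list 4 of 41 (9.76%) lay above and 5 (12.2%) below, with a median of 0.027. KDM6B, which encodes a demethylase of the Polycomb mark on lysine 27 of histone H3, was at 59.0, 33.7 and 48.8 CPM with both compounds, 20.8, 26.6 and 26.8 CPM with chaetocin, 10.6, 10.2 and 6.17 CPM with MLN8237, and 7.61, 10.3 and 11.5 CPM with vehicle. All combination libraries of KDM6B were above all others, and the interaction was 1.05 ± 0.328. Genes with ZNF symbols, most of them zinc finger genes, had a median of 0.125 over 470 genes of at least 1 CPM, with 46 (9.79%) above and 15 (3.19%) below. Clustered histone genes had the highest list median, 0.399, with 4 of 40 above and 1 below, but their summed level was only 180 to 270 CPM with both compounds and 105 to 116 CPM with vehicle, and the median was -0.017 under the stricter expression filter. Histone genes have near-identical copies, which makes their counts uncertain.

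Stress and signalling lists centred near additivity. Immediate early genes were the most spread, with a median of 0.157 and 5 of 31 (16.1%) above, NR4A2 among them, and 4 (12.9%) below, CTGF among them. Over all tested genes the shares were 5.86% above and 7.75% below. The integrated stress and unfolded protein response had a median of -0.017, with 3 of 40 above and 1 below. ATF3, a transcription factor of that response, was at 22.9, 16.8 and 27.7 CPM with both compounds, 14.1, 16.4 and 16.8 CPM with chaetocin, 5.28, 6.03 and 4.79 CPM with MLN8237, and 5.41, 5.56 and 5.67 CPM with vehicle, and combination library 2 overlapped the chaetocin libraries (interaction 0.56 ± 0.228). Without MLN8237 library 3 ATF3 was at 0.475, with an unadjusted edgeR p over 0.05. The kinase gene EIF2AK3 lay above (0.55 ± 0.179), and DDIT4, an inhibitor of growth signalling, lay below (-0.61 ± 0.234). Oxidative stress genes of the NRF2 list, of which 28 of 38 had a called average rise with chaetocin, had a median interaction of -0.094 with 0 above and 1 below, GSTM3 (-0.54 ± 0.224). Without MLN8237 library 3 the median was -0.024, and GSTM3 was at -0.305 with an unadjusted edgeR p over 0.05. Heat shock genes had a median of 0.012 with 1 of 27 above, the co-chaperone gene DNAJB4 (0.35 ± 0.136), and 0 below. NF-kB targets and secreted factors had a median of -0.058 with 2 of 38 above and 2 below.

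Genes of cell death were also mixed. Apoptosis regulators had a median of -0.031 with 1 of 41 above, APAF1 (0.52 ± 0.134), which encodes the scaffold of the apoptosome, and 4 below. BBC3, the death inducer PUMA, was at 2.09, 2.31 and 2.30 CPM with both compounds against 2.52 to 3.08 CPM with chaetocin, 3.14 to 3.89 CPM with MLN8237 and 2.87 to 2.97 CPM with vehicle (-0.61 ± 0.21). The p53 target list had a median of -0.033, with 1 of 29 above and 4 below. CDK inhibitors and senescence genes had a median of -0.139, with 1 of 14 on either side. Shares over all tested genes were 5.86% above and 7.75% below. TNFRSF10D, a decoy receptor for the death ligand TRAIL, was at 56.2, 32.6 and 49.7 CPM with both compounds, 19.8, 25.1 and 19.2 CPM with chaetocin, 8.07, 8.22 and 5.95 CPM with MLN8237, and 6.58, 6.79 and 6.85 CPM with vehicle. All combination libraries of TNFRSF10D exceeded all others (interaction 0.97 ± 0.264).

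Of the epithelial list 3 of 41 lay above and 4 below (median -0.065), and of the mesenchymal and matrix list 1 of 43 lay above and 6 below (median -0.047), CTGF, CYR61 and S100A4 among those 6. In all tested genes the shares were 5.86% above and 7.75% below. All 6 ductal carcinoma markers had negative interactions, with a median of -0.39 and 3 below at an unadjusted p under 0.05, KRT18, EPCAM and KRT7. The median was -0.274 without MLN8237 library 3 and -0.287 with length-trend offsets. KRT7, at 3.49 to 7.18 CPM, had an interaction of -0.704, and -0.516 without MLN8237 library 3. KRT18, a keratin of simple epithelia, was at 681, 812 and 766 CPM with both compounds, 905, 915 and 887 CPM with chaetocin, 1629, 1717 and 1978 CPM with MLN8237, and 1750, 1640 and 1496 CPM with vehicle (interaction -0.38 ± 0.145). Of markers of other cell types, 3 of 5 immune, 1 of 4 endothelial, 2 of 4 fibroblast, 0 of 4 acinar and 0 of 4 endocrine genes were tested, and none of those tested had an unadjusted p under 0.05.

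Interferon-stimulated genes had a median of -0.119 with 1 of 64 above, TRIM22 (1.44 ± 0.392), and 9 (14.1%) below, among them IFITM2 (-0.55 ± 0.174) and the immunoproteasome subunit gene PSMB8 (-0.61 ± 0.194). That share is near background, as 10.1% of all genes of at least 1 CPM and 12% of those at 10 to 100 CPM lay below. Hypoxia and glycolysis had a median of -0.103 with 3 of 40 on either side. Cholesterol and fatty acid synthesis had a median of -0.023 with 1 of 37 on either side, HMGCS1 above (0.35 ± 0.135) and EBP below (-0.58 ± 0.231). EBP was at -0.348 without MLN8237 library 3, with an unadjusted edgeR p over 0.05. Autophagy and lysosome had a median of 0.007 with 3 of 43 above and 1 below. Germline and cancer-testis genes had a median of 0.111 with 2 of 23 above and 2 below. Mitochondria-encoded proteins had a median of -0.003 with 0 of 13 on either side.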

How the data were processed

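RNA of PANC-1 cells was sequenced in 12 libraries. Per the submitters' processing notes, CASAVA 1.9, TopHat 12.0.6 and HTSeq were used, with hg19 as the build, in no stated role or order. The authors deposited whole-number counts per gene and library, together with RPKM values and a gene length. The deposited counts were tested, the deposited RPKM values were not used, and 33.7% of lengths are multiples of 3, which shows that they include more than coding sequence. The sources used here do not give whether counting used strand, so reads of overlapping or antisense genes cannot be told apart.

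Counts were fitted with edgeR 4.0.16 in R 4.3.3 (default filter by group, TMM scaling, 4 group means, robust quasi-likelihood F test, Benjamini-Hochberg adjustment over 22831 genes, called under 0.05), tested first on simulated data. The common biological coefficient of variation was 0.155. CPM values are TMM-scaled. Alternatives were RLE scaling, no filter, DESeq2 1.42.0, a stricter filter (6 or more libraries at 1 CPM), limma-voom 3.58.1, replicate number as a block, additivity on the CPM scale, libraries left out, and 2 added after the data were seen (omission of MLN8237 library 3 with combination library 2, and offsets that remove each library's loess trend on gene length). The comparison, its members and the 33 gene lists were chosen with earlier results of these data known. Named genes were the 10 each way with the smallest interaction p at a mean of at least 1 CPM, up to 3 per list with the smallest p, the 8 each way with the largest average chaetocin effect at a mean of at least 5 CPM, and the genes of the compounds' known targets. Not every one is printed, and a few are not reported here. Coordinates are those of the authors' table. The percentages of genes past an unadjusted p serve as background for counts within lists.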

Additional observations from a re-analysis of the deposited data

How the results depend on the processing

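The interaction called 0 genes by edgeR in all 12 libraries, with RLE scaling, the stricter filter, limma-voom, length-trend offsets, the 3 treated or all 4 libraries numbered 3 omitted, and each library left out in turn (0 to 0). It called 2 without an expression filter (RP3-375P9.2 and ZSCAN12P1), 15 with DESeq2 and 144 (45 above and 99 below) without MLN8237 library 3 and combination library 2. That omission was chosen after the data were seen, and takes out the combination library nearest to chaetocin. It called 8 of the 15 DESeq2 genes. The average MLN8237 effect called 0 genes in the same settings, 4 without a filter, 42 with DESeq2 and 211 with that omission. The average chaetocin effect called 3216 genes, against 11507, with an added log2 minimum of 1. With the replicate number as a block the interaction called 0 genes, with 4756 at an unadjusted p under 0.05 against 3108. Same-numbered libraries deviated together by over 0.1 in 12 of 18 pairs (correlation -0.377 to 0.756). These were 8 of 9 pairs among the treated groups and 4 of 9 with vehicle, and 8 of 12 libraries correlated best with their own number. The treated libraries numbered 3 correlated at 0.638 to 0.756. Treated libraries of a number thus shared deviations, which the main fit, having no block, treats as independent. The labels name no pairing, and whether the numbers mark one was not tested.

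The interaction of AURKA (0.023) was -0.006 without a filter, -0.043 with the added omission and -0.056 to 0.071 with single libraries left out, negative without combination library 2, chaetocin library 3 (-0.02) or MLN8237 library 1 (-0.012). That of TXNRD1 (0.169) was -0.062 with the added omission and -23.66 CPM on the CPM scale. No other gene printed with an interaction value of its own changed sign in these settings. With 3 libraries a group, the median standard error was 0.199 for genes of at least 1 CPM. Departures several times their own standard error were not called by edgeR, such as PRDM10 (0.83 ± 0.158) and CTGF (-0.58 ± 0.126). An absence of calls therefore does not show an absence of departures. The cause of each change was not tested.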
